A study of Mus musculus with 12 samples.

Results

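The difference between abdominally irradiated and non-irradiated mice was measured as the part common to 2 brain regions, the hippocampus and the prefrontal cortex. All 12 RNA-seq libraries of the series entered it. The log2(FPKM + 1) values of both regions were averaged for each mouse, and the 3 irradiated mice were compared with the 3 control mice. FPKM is the number of sequenced fragments scaled to transcript length and to the mapped fragments of the library. Of 23183 genes listed, 12894 whose mean over the 12 libraries reached 1 FPKM were compared. The mice were male C57BL/6 animals on a standard chow diet. The irradiated group received X-rays to the abdomen, with 13 Gy given only in the library names, and the controls were not irradiated. Tissue was taken in the chronic phase of the intestinal injury; neither the labels nor the files state the interval. The titles number the mice within each treatment, and libraries of both regions with the same number were taken as 1 animal. All libraries carry the same batch label.

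The X-rays were aimed at the abdomen, and 2 places in the brain were then sampled. Brain vessels are lined by endothelial cells joined by tight junctions, which form the blood-brain barrier, and they read circulating signals such as cytokines, glucocorticoids and oxygen supply. Vascular endothelial growth factor A, encoded by Vegfa, is the main growth and permeability factor of these cells. RNase MRP, a particle of 1 RNA and a set of proteins shared with RNase P, cuts the precursor of ribosomal RNA and is needed for making ribosomes.

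The region labels were borne out by their markers. C1ql2, a dentate gyrus gene, was at 29.5 to 38.1 FPKM in the hippocampus and 0.347 to 0.846 in the prefrontal cortex, and Lamp5, a gene of the upper cortical layers, was at 16.1 to 20.3 and 76.7 to 91.4. The FPKM values of a library summed to 387367 to 419823 in the irradiated and 417801 to 435534 in the control hippocampus. Prefrontal sums were 381417 to 406369 after irradiation and 416042 to 420431 in controls, without overlap. The number of genes at 1 FPKM or more was 12640 to 12967. Relative depth read from the steps between low values was 0.859 to 1.04. It was sought only in a narrow span around the depth of the hippocampus library of control mouse 1, so a larger difference could not show. The hippocampus library of irradiated mouse 2 stood apart chiefly in its choroid plexus genes. These genes, which mark the tissue that secretes cerebrospinal fluid, summed to 204.5 FPKM there and to 4052 to 7107 in the other 5 hippocampus libraries. It also had the lowest hippocampal sums of cytosolic ribosomal protein genes (25870 FPKM), myelin genes (2938) and ependymal genes (99.56). The prefrontal library of control mouse 3 held 70.21 FPKM of hypothalamic neuropeptide genes against 20.74 to 35.36 in the other 5. In bulk tissue, fewer cells of a type and less RNA per cell cannot be told apart. Deviations from the group mean were correlated between the regions of a mouse over genes at 0.174, 0.256 and 0.3 in the irradiated mice and at 0.29, -0.00601 and 0.0542 in the control mice. Hippocampus of control mouse 3 went better with the prefrontal cortex of control mouse 2, at 0.171, than with its own.

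The gene with the smallest p was Rmrp, the RNA of RNase MRP, and it was the only gene past the threshold. The gene lies on chr4:43492783-43493063, minus strand (mm10, GENCODE M21), where the annotation gives it both as a ribozyme and as a long noncoding RNA. The shorter entry, Rmrp-201 at chr4:43492788-43493058, is printed because the whole gene is one short RNA and its length bears on how well it is measured. It is written in DNA letters, with nothing marked in capitals:
RNase MRP RNA, Rmrp-201: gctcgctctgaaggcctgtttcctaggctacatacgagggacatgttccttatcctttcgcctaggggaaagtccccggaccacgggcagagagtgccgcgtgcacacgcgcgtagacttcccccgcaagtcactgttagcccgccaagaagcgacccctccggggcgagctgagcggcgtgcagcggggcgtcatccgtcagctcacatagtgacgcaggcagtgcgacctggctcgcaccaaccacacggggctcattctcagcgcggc
At 271 bases it is shorter than most genes tested, whose exons joined to a median of 4548 bases.

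In the hippocampus Rmrp was at 13.7, 9.65 and 8.37 FPKM in irradiated mice 1 to 3 and at 11.9, 15.6 and 14.3 FPKM in control mice 1 to 3. These ranges overlap, since irradiated mouse 1 was above control mouse 1. In the prefrontal cortex Rmrp was at 8.96, 14.1 and 13.4 FPKM in the irradiated mice and at 34.8, 24.4 and 34.9 FPKM in the controls. There every irradiated library was far below every control library. The mouse means of log2(FPKM + 1) were 3.60 ± 0.06 (SD, n = 3) after irradiation and 4.45 ± 0.10 (SD, n = 3) in controls, and did not overlap. Rmrp fell by 0.85 ± 0.07 (SE) on the log2(FPKM + 1) scale (limma, adjusted p = 0.00614), and all 3 irradiated mice were below all 3 controls. It was 1 gene of 12894 called at an adjusted p under 0.05, or 0.00776%, and no gene was called higher (0.0%). The difference was -0.39 in the hippocampus and -1.31 in the prefrontal cortex. The test of the difference between regions gave an adjusted p of 0.811 (limma), so a stronger difference in the prefrontal cortex was not called.

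The call of Rmrp held in 14 of 17 alternative settings. It was lost without the filter on low values (adjusted p = 0.0668), after removal of the trend with transcript length (-0.60, adjusted p = 0.303), and when all 12 libraries were fitted with mouse as a random effect (adjusted p = 0.192). Rmrp overlaps Ccdc107 on the opposite strand, and no source used here says whether the authors counted by strand. Ccdc107, named after its values were seen, differed by -0.20 (adjusted p = 0.484).

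The other genes of RNase MRP and RNase P had differences from -0.49 to 0.08, and none was called. Of 12 such genes, a list made after Rmrp was seen and without it, 9 had negative differences, beside 51.9% of all genes, and 4 had mouse means that did not overlap, all lower after irradiation. Over all genes 17.1% had mouse means that did not overlap, 8.84% lower and 8.28% higher. The list's median was -0.09, beside -0.005 over all genes tested, and moved to -0.04 without irradiated mouse 2 and to -0.12 without irradiated mouse 3. With the libraries scaled to equal totals it was -0.02, with 8 negative. Rpp21, a protein subunit of RNase P, was at 20.02, 21.7 and 20.9 FPKM in the hippocampus of the irradiated mice and at 29.3, 24.4 and 25.8 in that of the controls. Its prefrontal values were 20.9, 20.1 and 20.1 against 22.04, 24.3 and 22.6 FPKM. Both regions were separated by a small margin, and the shared difference was -0.25 ± 0.05 (SE, adjusted p = 0.355). The subunit genes Pop4 (-0.19) and Rpp38 (-0.27) had adjusted p values of 0.442 and 0.466.

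Vegfa led the genes that were higher after irradiation and missed the threshold. It was at 19.9, 23.3 and 20.9 FPKM in the hippocampus of irradiated mice 1 to 3 and at 12.9, 14.4 and 14.2 FPKM in that of control mice 1 to 3. Prefrontal values were 21.9, 24.0 and 21.8 FPKM after irradiation and 14.8, 15.6 and 16.9 FPKM in controls. The groups did not overlap in either region, and the lowest irradiated library was above the highest control library of both regions. The mouse means were 4.52 ± 0.09 and 3.98 ± 0.08 (SD, n = 3 each) on the log2(FPKM + 1) scale. The difference of 0.54 ± 0.07 (SE) had an adjusted p of 0.0905 (limma), and it was 0.59 in the hippocampus and 0.49 in the prefrontal cortex. Fitted on all 12 libraries with mouse as a random effect, Vegfa had an adjusted p of 0.00492 and was then the only gene called. Over all its alternatives the adjusted p ran from 0.00492 to 0.405 and the difference from 0.45 to 0.62. Vegfa lies on chr17:46016993-46032369, minus strand (mm10).

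**Figure D1:**
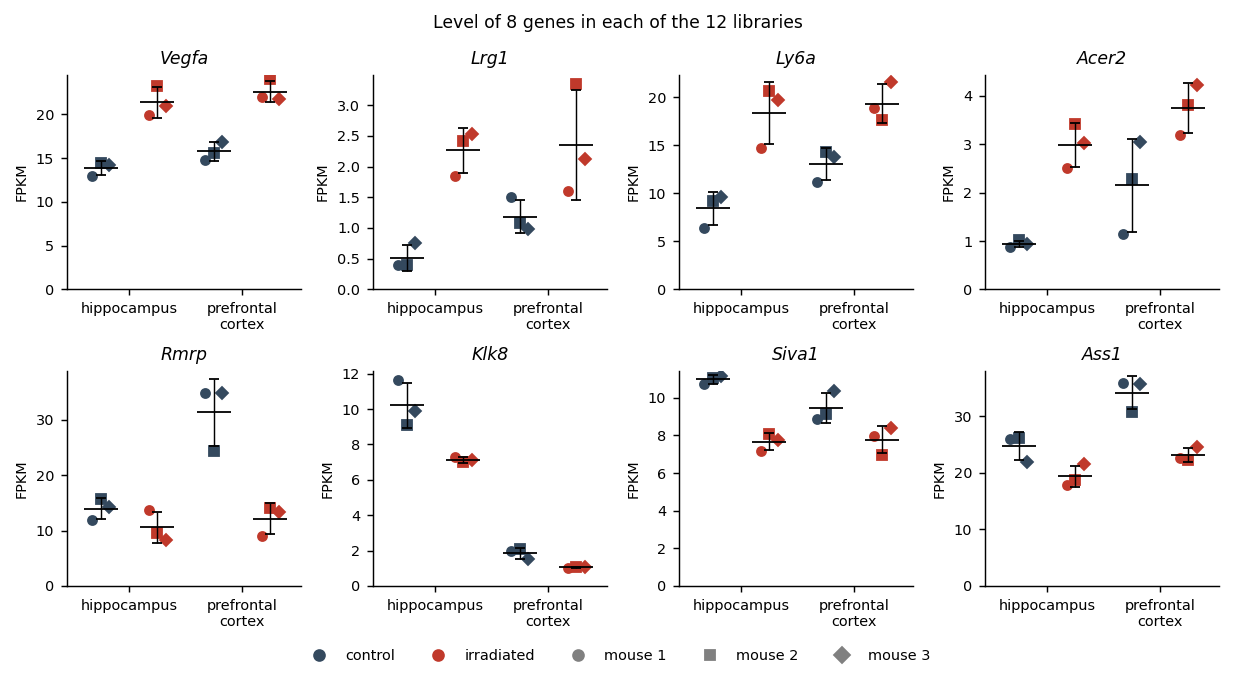
FPKM of 8 genes (vertical axis, from 0) in each library, by region, with controls in blue, irradiated mice in red and the mouse number as the symbol. Lines give the mean and bars the SD of 3 libraries. Vegfa was separated between the groups in both regions, while Rmrp overlapped in the hippocampus and was far lower in the prefrontal cortex of the irradiated mice.

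Several of the other leading higher genes are known from brain vessels, and none of them passed the test. Values are given for mice 1, 2 and 3 in that order, irradiated first. Lrg1, a secreted glycoprotein made by activated endothelium, was at 1.85, 2.41 and 2.52 FPKM in the hippocampus of the irradiated mice and at 0.399, 0.394 and 0.757 in the controls. The prefrontal libraries gave 1.61, 3.34 and 2.12 against 1.497, 1.08 and 0.986 FPKM. The groups were separated in both regions, narrowly in the prefrontal cortex, with a difference of 0.85 ± 0.12 (SE, adjusted p = 0.216). Lrg1 averaged 0.852 FPKM in the control and 2.31 in the irradiated libraries. It thus passed the filter of a mean of 1 FPKM only through the irradiated libraries and had to be higher there. Ly6a, a surface protein of brain endothelium, was at 14.7, 20.6 and 19.7 FPKM in the hippocampus after irradiation and at 6.43, 9.22 and 9.63 in controls. Its prefrontal values were 18.8, 17.6 and 21.6 against 11.2, 14.3 and 13.8 FPKM. Again no libraries overlapped, and the difference was 0.79 ± 0.12 (SE, adjusted p = 0.216).

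Acer2, which encodes a Golgi enzyme that turns ceramide into sphingosine, was at 2.51, 3.43 and 3.02 FPKM in the hippocampus of irradiated mice and at 0.881, 1.01 and 0.940 in controls. Its prefrontal levels were 3.19, 3.82 and 4.23 against 1.14, 2.27 and 3.05 FPKM. The hippocampus groups were well apart and the prefrontal groups nearly touched, with a shared difference of 0.83 ± 0.13 (SE, adjusted p = 0.260). Adgrl4, an adhesion receptor of sprouting endothelium, differed by 0.60 (adjusted p = 0.260), and Ly6c1, another endothelial surface protein, by 0.78 (adjusted p = 0.351). P4ha1, a collagen prolyl hydroxylase known to be induced by low oxygen, differed by 0.35 (adjusted p = 0.296), and the kinase gene Nuak1 by 0.30 (adjusted p = 0.355). These 4 genes had no overlap of libraries in either region.

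Another pair of leading higher genes was less even. Ctgf, a matrix protein and target of the YAP pathway, was at 9.82, 7.48 and 7.84 FPKM in the hippocampus after irradiation and at 3.11, 4.07 and 3.44 in controls. The prefrontal cortex held 12.9, 14.5 and 14.4 against 8.83, 14.6 and 13.3 FPKM. The hippocampus groups were far apart and the prefrontal groups overlapped, and the shared difference of 0.62 had an adjusted p of 0.338. The difference between regions, 0.84 ± 0.16 (SE), had an adjusted p of 0.526 (limma). Snora81, a small nucleolar RNA inside Eif4a2, was listed at 0 in 2 control hippocampus libraries, in 1 irradiated hippocampus library and in all 3 prefrontal controls. Its other values were 6.91 to 16.1 FPKM. An exact 0 in a file without counts can be a failed estimate, so no fold is given.

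The leading lower genes after Rmrp also did not pass the test. Klk8, a secreted serine protease of the hippocampus also called neuropsin, was at 7.29, 6.98 and 7.11 FPKM in the hippocampus of the irradiated mice and at 11.6, 9.10 and 9.88 in the controls. In the prefrontal cortex, where its level was lower, it was at 1.03, 1.07 and 1.07 against 1.96, 2.06 and 1.499 FPKM. The irradiated libraries lay close together and below every control, with a difference of -0.46 in each region (shared SE 0.07, adjusted p = 0.269). Siva1, a pro-apoptotic p53 target, was at 7.17, 8.09 and 7.75 FPKM in the hippocampus after irradiation and at 10.7, 11.1 and 11.2 in controls. Its prefrontal values were 7.95, 6.98 and 8.40 against 8.87, 9.15 and 10.4 FPKM. Both regions were separated, and the difference was -0.36 ± 0.06 (SE, adjusted p = 0.286).

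Gng13, a G-protein gamma subunit, differed by -0.41 and Dpy30, a subunit of histone H3K4 methyltransferase complexes, by -0.33. The mitochondrial ribosome genes Mrpl34 and Mrpl14 both differed by -0.29. Their adjusted p values were 0.338 to 0.355, and their libraries did not overlap in either region. Mia, which the list of ependymal genes holds, differed by -0.61 (adjusted p = 0.334). In the hippocampus it was at 5.83, 3.38 and 10.01 FPKM against 10.3, 13.5 and 11.5, and its prefrontal groups overlapped. 1810022K09Rik, outside the naming rule and named after its values were seen, had the same adjusted p as Vegfa, 0.0905, with a difference of -0.42.

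**Figure D2:**
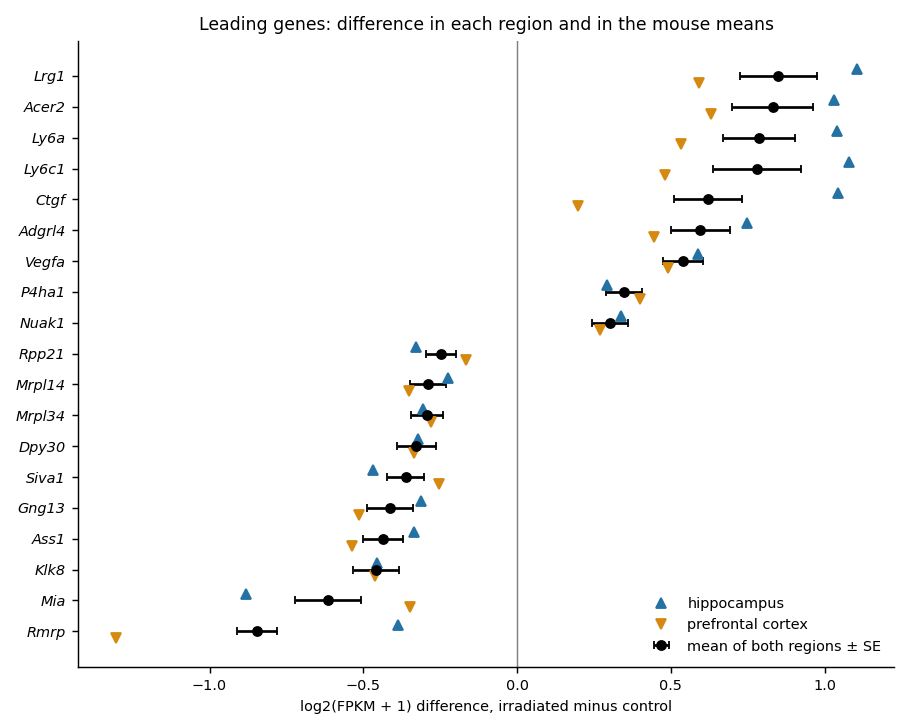
Difference in log2(FPKM + 1) between irradiated and control mice for 19 leading genes, as the mean of both regions with its SE (black, n = 3 mice a group) and in the hippocampus (blue) and prefrontal cortex (orange). All 19 had the same sign in both regions, and Rmrp and Ctgf differed most between regions, by 0.92 and 0.84 in size.

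Ass1 appeared among the leading lower genes and is uncertain because of a near-identical pseudogene. Ass1 encodes argininosuccinate synthase, an enzyme of arginine recycling, on chr2:31470207-31520672, plus strand. Gm5424 is a processed pseudogene on chr10:62071123-62072362, plus strand (mm10). The Ass1-201 transcript matched it at 1234 of 1240 aligned bases, or 99.5%. All 6 differences lay in the coding part of 1236 bases. The stretch from coding base 364 to 463 is printed to show how little separates them, with the 2 bases that differ in capitals:
Ass1: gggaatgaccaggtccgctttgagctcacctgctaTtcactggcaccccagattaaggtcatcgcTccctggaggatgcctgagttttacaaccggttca
Gm5424: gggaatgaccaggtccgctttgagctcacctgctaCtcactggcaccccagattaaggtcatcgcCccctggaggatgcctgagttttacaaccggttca
Ass1 was at 17.8, 18.8 and 21.5 FPKM in the hippocampus of irradiated mice and at 26.0, 26.2 and 21.8 in controls. In the prefrontal cortex it was at 22.5, 22.3 and 24.6 against 35.8, 30.7 and 35.7 FPKM. No libraries overlapped, and the difference was -0.44 ± 0.07 (SE, adjusted p = 0.216). Gm5424, named after its values were seen, went the other way. It was at 10.5, 8.45 and 5.79 FPKM in the hippocampus after irradiation and at 0.0238, 1.10 and 3.98 in controls. Its prefrontal values were 14.4, 13.2 and 12.2 against 0.0574, 8.28 and 7.69 FPKM. The summed FPKM of both genes were 28.3, 27.2 and 27.3 in the irradiated hippocampus and 26.0, 27.3 and 25.8 in that of the controls. Prefrontal sums were 37.0, 35.5 and 36.8 against 35.9, 39.0 and 43.4. The mouse means of the sum overlapped, with a difference of -0.02, where Ass1 alone gave -0.44. No source used here says how the authors divided reads between matching loci.

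Endothelial genes had a positive median in both regions, with no single gene called. Of 18 endothelial identity and junction genes tested, 16 had positive differences, beside 48.1% of all genes. Mouse means of 12 did not overlap, all higher, beside 8.28% of all genes. Icam2, 1 of the 18, averaged under 1 FPKM in controls, so it passed the filter only through the irradiated libraries. At an unadjusted p under 0.05, 13 of the 18 were higher and none lower, beside 4.04% higher and 6.07% lower among all genes tested (10.1% in all). These shares of all genes also stand beside the counts of the lists below in the same fit. The members and lists were chosen with earlier results of these data known. Counts set beside these shares are therefore descriptive and give no independent support. The list's median was 0.32, with 0.41 in the hippocampus and 0.19 in the prefrontal cortex. The 20 listed genes summed to 137.5 to 154.7 FPKM in the irradiated and 90.66 to 114.1 in the control hippocampus, and to 139.4 to 161.7 and 119.5 to 129.4 in the prefrontal cortex. These sums did not overlap in either region. Without irradiated mouse 2, or without control mouse 1, 8 of the 18 had a p under 0.05, and without control mouse 1 the median was 0.22. Of all 12894 genes, 348 and 365 were higher at that p in these fits, in that order. Cldn5, the tight junction protein of the barrier, was at 15.3, 15.6 and 10.99 FPKM against 7.31, 7.93 and 10.8 in the hippocampus. Prefrontal values were 18.7, 16.1 and 16.5 against 15.9, 14.0 and 14.9 FPKM. The separation was narrow in both regions, with a difference of 0.41 (adjusted p = 0.369). Eng, the endothelial TGF-beta co-receptor endoglin, differed by 0.38 (adjusted p = 0.369).

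Endothelial activation genes, those that endothelium turns on with flow, cytokines or clotting, gave 10 positive differences of 14, with 8 higher and none lower at an unadjusted p under 0.05. Their median was 0.20, with 0.27 in the hippocampus and 0.18 in the prefrontal cortex. Klf2, a transcription factor induced by blood flow, was at 2.73, 4.17 and 5.33 FPKM against 2.02, 2.80 and 2.34 in the hippocampus. The prefrontal libraries gave 4.89, 6.35 and 5.52 against 3.31, 3.92 and 2.89 FPKM. Klf2 overlapped in the hippocampus only and differed by 0.57 (adjusted p = 0.368). Klf4, its paralogue, differed by 0.44 (adjusted p = 0.368). Vwf, the clotting protein stored in endothelium, was at 1.52, 3.84 and 2.76 FPKM against 0.333, 0.744 and 1.30 in the hippocampus. It was at 1.35, 3.24 and 3.25 against 0.952, 1.08 and 1.08 FPKM in the prefrontal cortex. Its groups were separated in both regions, with irradiated mouse 1 the nearest to the controls, and the difference was 0.90 ± 0.22 (SE, adjusted p = 0.369). In 4 of the 14, Vwf, Klf4, Lrg1 and Nos3, the control libraries averaged under 1 FPKM. These passed the filter only through the irradiated libraries and had to be higher there. With the filter at a mean of 5 FPKM, 3 genes of the list were left, with a median of 0.02. Transcripts of the adhesion molecule Sele were listed at 0 in the controls of both regions.

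Blood-brain barrier transporters gave values that moved with the scaling. Of 17, 15 had positive differences, with 2 higher and none lower at an unadjusted p under 0.05, and their median was 0.07. On equal totals 9 were higher at that p, beside 1728 of all 12894 genes. The list's median was then 0.15, beside 0.07 over all genes, and without control mouse 3 it was 0.11. Slc2a1, the glucose transporter of the barrier, was at 26.5, 33.6 and 36.4 FPKM against 22.6, 25.4 and 26.2 in the hippocampus. Its prefrontal levels were 26.7, 33.0 and 39.5 against 21.6, 27.3 and 24.6 FPKM, where irradiated mouse 1 was below control mouse 2. The difference of 0.38 had an adjusted p of 0.415. All 12 pericyte and smooth muscle genes tested had positive differences, with a median of 0.20, and 3 were higher at an unadjusted p under 0.05. Their median was 0.33 in the hippocampus and 0.04 in the prefrontal cortex, where the summed levels overlapped, at 70.83 to 81.37 against 73.73 to 76.56 FPKM. Vtn, the vitronectin gene expressed by brain pericytes, differed by 0.67 in the hippocampus and 0.02 in the prefrontal cortex. Without irradiated mouse 2, 9 of the 12 were positive.

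Vessel-associated fibroblast genes differed in opposite directions between the regions. Meningeal and perivascular fibroblast genes had a median of 0.57 in the hippocampus and -0.35 in the prefrontal cortex, and 0.05 in the mean of both. Their sums were 1094 to 1498 FPKM in the irradiated and 508.9 to 1117 in the control hippocampus, which overlapped. The prefrontal cortex held 374.2 to 774.2 against 910.3 to 1066 FPKM, which did not. Over 21 genes, 13 had positive and 8 negative shared differences, with 3 higher and 2 lower at an unadjusted p under 0.05. The shared median was -0.007 without control mouse 1 and 0.17 without control mouse 3. Slc13a4, a sulfate transporter of the meninges and choroid plexus, differed by -0.46 (adjusted p = 0.355). In the same regions, hippocampus first, the endothelial identity median was 0.41 and 0.19 and the pericyte median 0.33 and 0.04. All 3 medians were lower in the prefrontal cortex, and the part of any of these lists in another was not tested. TGF-beta and YAP target genes had 7 positive and 7 negative differences of 14, with 3 higher at an unadjusted p under 0.05, and a median of 0.03. Col4a1, a collagen of the vessel basement membrane, differed by 0.46 (adjusted p = 0.368), with no overlap in either region.

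**Figure D3:**
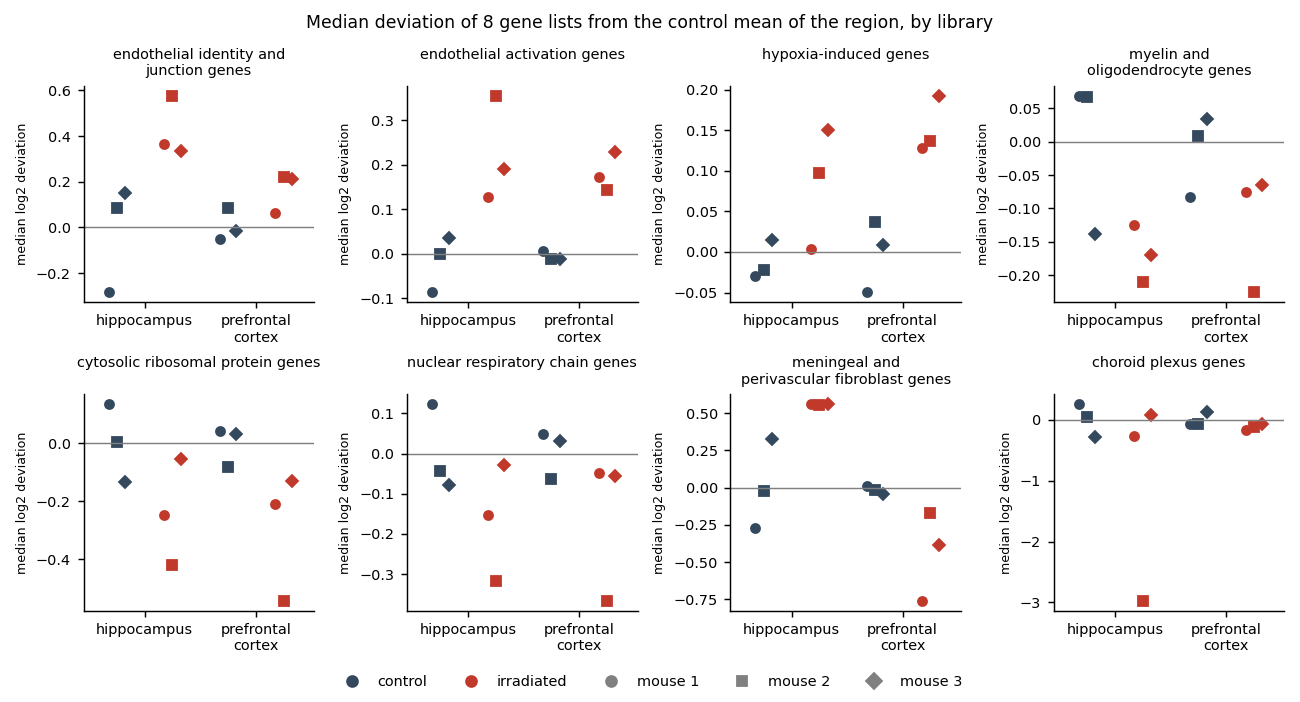
Median deviation from the control mean of the region, in log2 units, over the genes of 8 lists, for each of the 12 libraries (controls blue, irradiated red, mouse number as the symbol). The irradiated libraries lie above the controls for endothelial activation genes in both regions. Of the 14 genes of that list, 4 passed the filter only through the irradiated libraries. The fibroblast genes go opposite ways in the regions, and the hippocampus of irradiated mouse 2 lies far below for choroid plexus genes.

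Genes induced by low oxygen were mostly higher, by small amounts. Of 22 hypoxia-induced genes, 20 had positive and 2 negative differences. Hk2, 1 of the 22, averaged under 1 FPKM in controls, so it passed the filter only through the irradiated libraries. Mouse means of 11 did not overlap, all higher, beside 8.28% of all genes. At an unadjusted p under 0.05, 7 of the 22 were higher and none lower, beside 4.04% and 6.07% of all genes. The median was 0.11, with 0.08 in the hippocampus and 0.16 in the prefrontal cortex, and Vegfa is itself a member. Leaving out 1 mouse gave medians of 0.09 to 0.14. Bhlhe40, a transcriptional repressor induced by hypoxia and part of the clock, was at 35.8, 42.4 and 36.5 FPKM against 30.3, 29.9 and 35.8 in the hippocampus. In the prefrontal cortex it was at 51.1, 60.3 and 58.5 against 36.1, 42.0 and 39.9 FPKM. The gap was narrow in the hippocampus and wide in the prefrontal cortex, with a difference of 0.38 ± 0.07 (SE, adjusted p = 0.355). Adm, the vasodilator adrenomedullin, differed by 0.47 (adjusted p = 0.384).

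Glucocorticoid response genes varied between the irradiated mice. Of 21, 16 had positive differences and 7 were higher at an unadjusted p under 0.05, with none lower, and the median was 0.19. In 1 of the 21, Lcn2, the control libraries averaged under 1 FPKM. It passed the filter only through the irradiated libraries and had to be higher there. In irradiated mouse 1 the list's median deviation was -0.01 in the hippocampus and 0.03 in the prefrontal cortex, while in irradiated mouse 3 it was 0.38 and 0.30. Without irradiated mouse 3 the median was 0.09 and 3 genes had a p under 0.05, and without irradiated mouse 1 it was 0.28 with 12 genes. Without control mouse 1 or 3, 3 genes did. Of all 12894 genes, 592, 426, 365 and 625 were higher at that p in these fits, in that order. Tsc22d3, a direct glucocorticoid receptor target, was at 33.0, 38.7 and 52.6 FPKM against 29.5, 34.0 and 27.3 in the hippocampus. Prefrontal values were 32.4, 35.2 and 51.2 against 26.1, 32.8 and 31.0 FPKM. Irradiated mice 2 and 3 lay above every control in both regions, mouse 3 by the wider margin, while mouse 1 did not. The difference was 0.39 (adjusted p = 0.466). Fkbp5, another target, differed by 0.14 (adjusted p = 0.590), and Nr3c1, the receptor itself, by 0.05 (adjusted p = 0.814).

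Clock genes included several with small even differences. Of 19 circadian clock genes, 16 had positive differences the median was 0.05, and 4 were higher at an unadjusted p under 0.05. Per2, a core repressor of the clock, was at 6.63, 6.60 and 6.46 FPKM against 3.69, 4.10 and 5.398 in the hippocampus. The prefrontal libraries gave 5.93, 6.81 and 7.71 against 4.23, 5.604 and 5.56 FPKM. Neither region overlapped, and the difference was 0.43 ± 0.10 (SE, adjusted p = 0.369). Per1, which glucocorticoids and neuronal activity also induce, differed by 0.24 (adjusted p = 0.384), with no overlap in either region. No source used here gives the hour of tissue collection.

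Immediate early genes, which neurons switch on within minutes of activity, gave 18 positive and 8 negative differences of 26. Klf4, 1 of the 26, averaged under 1 FPKM in controls, so it passed the filter only through the irradiated libraries. The list's median was 0.11, and 7 genes were higher at an unadjusted p under 0.05. The median was 0.04 without control mouse 3, and 4 genes had a positive difference at that p without irradiated mouse 1. In the latter fit 426 of all 12894 genes were higher at that p. Fosl2, a partner of Jun in AP-1, was at 14.5, 14.7 and 13.8 FPKM against 9.94, 11.1 and 9.70 in the hippocampus. Its prefrontal levels were 10.3, 8.08 and 9.25 against 8.05, 8.05 and 6.35 FPKM. The hippocampus groups were far apart and the prefrontal groups nearly touched, with a difference of 0.36 (adjusted p = 0.355). Egr1 differed by 0.29 (adjusted p = 0.411) and Fos by 0.17 (adjusted p = 0.659), and Bdnf, an activity-dependent neurotrophin, by 0.06 (adjusted p = 0.717).

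Lcn2, an acute-phase gene, encodes lipocalin 2, an iron-binding protein of inflammation. It was at 1.09, 7.10 and 2.73 FPKM in the hippocampus of irradiated mice and at 0.237, 0.0783 and 0.0858 in controls. The prefrontal cortex held 1.15, 4.23 and 1.20 FPKM after irradiation and 0.3496 and 0.231 in control mice 2 and 3, with control mouse 1 listed at 0. Every irradiated library was above every control, with irradiated mouse 2 highest in both regions. The difference was 1.56 ± 0.34 (SE) on the log2(FPKM + 1) scale, which understates the ratio of such low values, and the adjusted p was 0.365. Lcn2 averaged 2.92 FPKM in the irradiated and 0.164 in the control libraries, so it passed the filter of a mean of 1 FPKM only through the irradiated group and had to differ. Of 9 acute-phase genes tested, 6 had positive differences, their median was 0.20, and 3 were higher at an unadjusted p under 0.05; 2 of the 9, Lcn2 and Lrg1, passed the filter in that way. Serpina3n, a marker of reactive astrocytes, differed by -0.24 (adjusted p = 0.498), and Gfap, the astrocyte filament gene, by -0.26 (adjusted p = 0.514).

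Neutrophil genes were checked beside Lcn2 after its values were seen. S100a9 was at 1.90, 5.63 and 0.494 FPKM in the hippocampus of irradiated mice and at 0.329 in control mouse 1, with the other 2 listed at 0. In the prefrontal cortex it was at 5.82, 1.62 and 0.831 against 0.378, 0.730 and 0.644 FPKM. The groups did not overlap, though the order of the mice differed between regions, and the difference was 1.25 ± 0.32 (SE, adjusted p = 0.384). S100a8, its partner, differed by 1.13 (adjusted p = 0.384) and overlapped in both regions. Both genes averaged under 1 FPKM in the control libraries and passed the filter only through the irradiated ones. Without irradiated mouse 3, S100a9 differed by 1.71 with an adjusted p of 0.000703. The part of blood cells in the Lcn2 values was not tested. Of the haemoglobin and red cell genes, 7 of 9 had positive differences. Hbb-bs, 1 of the 9, averaged under 1 FPKM in controls and also passed the filter only through the irradiated libraries. The list's median of 0.33 became 0.01 when irradiated mouse 3 was left out. Hbb-b1, a globin of red cells, was in that mouse at 186 and 238 FPKM against 88.8 to 147 in the control libraries.

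Several classical inflammatory genes were too low to test, and the interferon and damage lists had medians near 0. Tnf, Il1b, Il6, Ccl2 and C3, with the serotonin genes Tph2 and Slc6a4, were under the filter of 1 FPKM and were not tested. Interferon and antigen presentation genes had 18 positive and 9 negative differences of 27, a median of 0.05, and 3 higher and 1 lower at an unadjusted p under 0.05. Ifit1, an interferon-induced RNA sensor, differed by 0.34 (adjusted p = 0.419). In 2 of the 27, Ifit1 and Irf7, the control libraries averaged under 1 FPKM. These passed the filter only through the irradiated libraries and had to be higher there. Among 25 p53 targets and DNA damage genes, 13 differences were positive and 12 negative, the median was 0.02, and 3 were higher at that p. Cdkn1a, the p53 target that stops the cell cycle, differed by 0.27 (adjusted p = 0.466), and Zmat3, another p53 target, by 0.19 (adjusted p = 0.384).

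Genes of the ribosome had negative differences, by amounts that varied widely between mice. All 75 cytosolic ribosomal protein genes had negative differences, between -0.05 and -0.47. At an unadjusted p under 0.05, 52 were lower, beside 6.07% of all genes, but none was called. Mouse means of 49 did not overlap, all lower, beside 8.84% of all genes. In both regions 5 were separated downward, beside 1.05% of all genes. The median was -0.27, with -0.24 in the hippocampus and -0.30 in the prefrontal cortex. By mouse, the list's median deviation was -0.23, -0.48 and -0.09 in irradiated mice 1 to 3 and 0.09, -0.03 and -0.05 in control mice 1 to 3. Irradiated mouse 2 was lowest in both regions. Without it the median was -0.16 with 35 genes at that p, and without control mouse 1 it was -0.22 with 21. Of all 12894 genes, 494 and 521 were lower at that p in these fits, in that order. Rps28, a small subunit protein, was at 435, 475 and 623 FPKM against 683, 617 and 576 in the hippocampus. Prefrontal values were 346, 322 and 388 against 561, 530 and 550 FPKM. Its hippocampus groups overlapped through irradiated mouse 3 and its prefrontal groups did not, with a difference of -0.47 ± 0.10 (SE, adjusted p = 0.355).

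Nuclear genes of the respiratory chain and genes of mitochondrial ribosomes lay on the same side. Of 74 nuclear respiratory chain genes, 69 had negative differences and 27 were lower at an unadjusted p under 0.05, with none higher. The median was -0.17, and without irradiated mouse 2 it was -0.07 with 16 lower and 1 higher. Leaving out control mouse 1 gave -0.12 with 11 lower. Of all 12894 genes, 494 were lower at that p without irradiated mouse 2 and 521 without control mouse 1. Ndufa1, a subunit of complex I, differed by -0.41 (adjusted p = 0.368), and Atp5j, a subunit of ATP synthase, by -0.36 (adjusted p = 0.369). Of 65 mitochondrial ribosomal protein genes, 58 had negative differences and 18 were lower at that p. Their median of -0.10 became -0.06 when irradiated mouse 2 was left out. On equal totals it was -0.03 with 41 negative and 8 lower, and with the length trend removed -0.06 with 46 and 10. Over all genes, 284 of 12894 were lower at that p on equal totals and 562 of 12431 with the length trend removed. None of the 28 genes encoded by mitochondrial DNA is in the files analysed here.

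**Figure D4:**
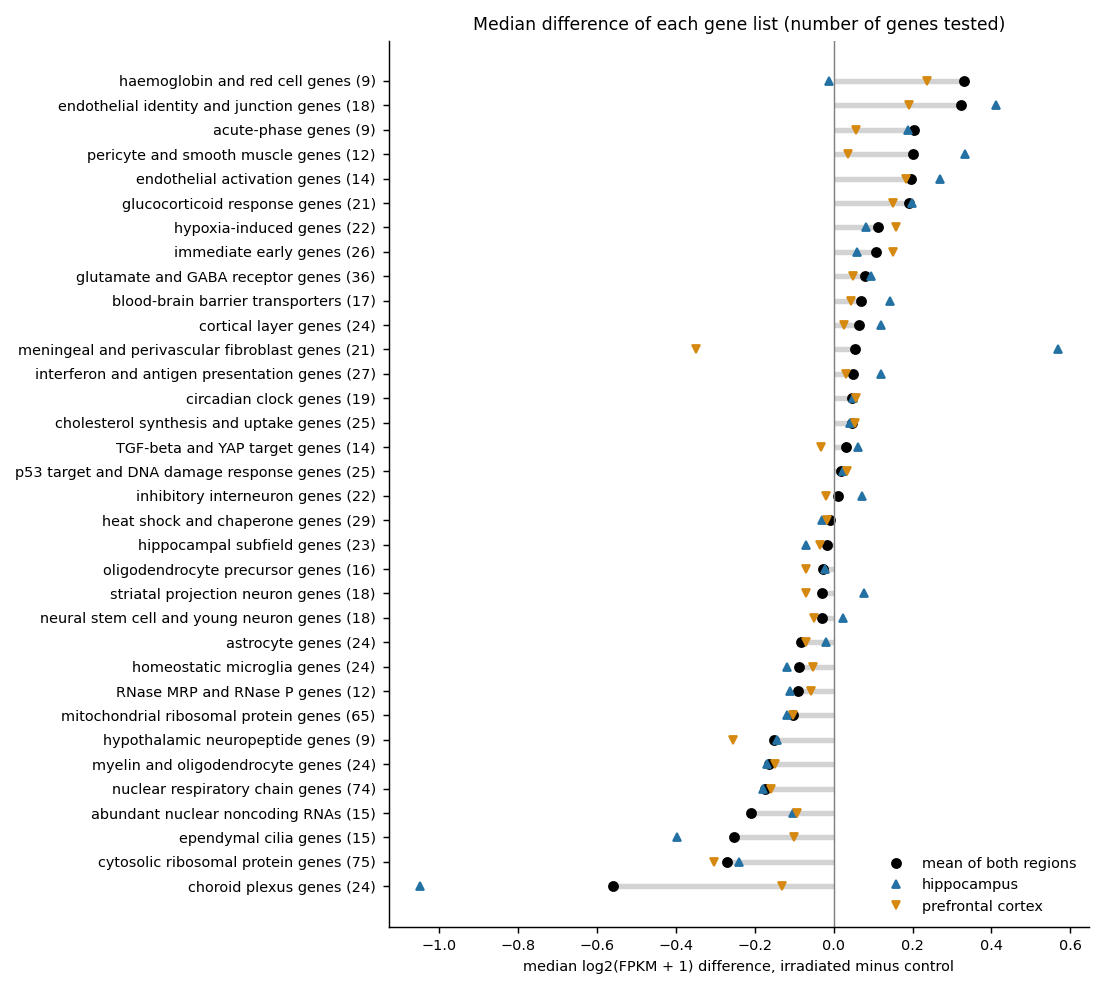
Median difference in log2(FPKM + 1), irradiated minus control, of 34 gene lists with the number of genes tested in brackets, for the mean of both regions (black) and for the hippocampus (blue) and prefrontal cortex (orange). Endothelial genes lie highest among the lists that keep their sign in both regions, at 0.32, and ribosomal protein genes near the bottom, at -0.27.

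Transcript length moved with these differences. Among 12431 tested genes with a length (96.4%), the median difference was -0.29 in genes with under 500 bases of joined exons, -0.16 from 500 to 1000 and -0.09 from 1000 to 2000. It was -0.03, 0.009 and 0.05 in the classes from 2000, 4000 and 8000 bases upward. The order was the same in both regions, and without irradiated mouse 2 the ends were -0.18 and 0.03. The median exon length was 1830 bases for cytosolic ribosomal protein genes, 1737 for respiratory chain genes and 2255 for mitochondrial ribosomal protein genes, beside 4548 over all genes. With the length trend removed, the ribosomal median was -0.21 with 44 genes lower at an unadjusted p under 0.05. The respiratory median was then -0.08 with 17 lower, and the endothelial median 0.32 with 14 higher. Of all 12431 genes in that fit, 559 were higher and 562 lower at that p. The part of RNA quality in the length trend was not tested.

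**Figure D5:**
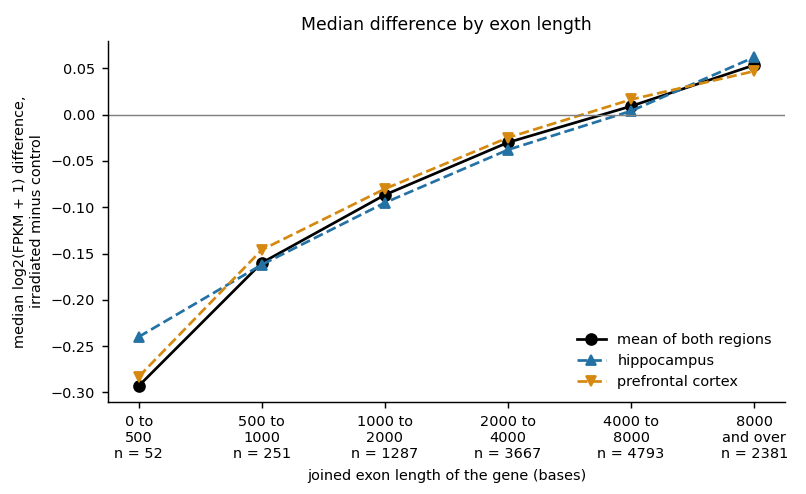
Median difference in log2(FPKM + 1), irradiated minus control, in 6 classes of joined exon length in bases, with the number of genes in each, for the mean of both regions (black) and each region (dashed). The medians climb from -0.29 in the shortest class to 0.05 in the longest, in the same order in both regions.

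The balance of higher and lower genes depended on the scale. At an unadjusted p under 0.05 there were 1304 genes, where 645 would be expected by chance, 521 higher and 783 lower, so 40.0% were higher. When each library was rescaled to equal totals, 2012 genes passed, 1728 higher and 284 lower, so 85.9% were higher, and the median of all genes moved to 0.07. With median-ratio scaling 46.0% were higher, and with the length trend removed 49.9%. On equal totals the medians of 5 of 34 lists changed sign, namely oligodendrocyte precursor, striatal, hippocampal subfield, neural stem cell and heat shock genes. The endothelial median was then 0.38 and the ribosomal median -0.19.

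Glial lists had negative medians on the deposited scale. On equal totals most myelin genes were negative, and the microglia, astrocyte and precursor lists were near an even split. Of 24 myelin and oligodendrocyte genes, 22 had negative differences, 9 were lower and 1 higher at an unadjusted p under 0.05, and the median was -0.16, with -0.17 in the hippocampus and -0.15 in the prefrontal cortex. On equal totals 19 were negative and 4 lower at that p, beside 284 lower of all 12894 genes. Mbp, myelin basic protein, was at 1236, 1220 and 1358 FPKM against 1623, 1737 and 1380 in the hippocampus. The prefrontal libraries gave 925, 865 and 895 against 976, 1105 and 1115 FPKM. The groups were separated in both regions, by a narrow margin at irradiated mouse 3 and control mouse 3 in the hippocampus, and the difference was -0.28 (adjusted p = 0.384). Gjb1, the gap junction protein connexin 32, differed by -0.34 (adjusted p = 0.355).

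Homeostatic microglia genes had 20 negative differences of 24, with 5 lower and 1 higher at an unadjusted p under 0.05. Their median, -0.09, became -0.14 without control mouse 1 and -0.009 on equal totals, where 13 were negative. Tyrobp, the adaptor of microglial receptors, was at 27.6, 26.6 and 30.0 FPKM against 31.2, 31.7 and 33.4 in the hippocampus. Its prefrontal levels were 27.9, 20.2 and 26.0 against 28.6, 31.7 and 34.3 FPKM. Both regions were separated, narrowly in each, with a difference of -0.27 (adjusted p = 0.394). Trem2, a lipid receptor that signals through Tyrobp, differed by -0.23 and Aif1, which encodes IBA1, by -0.25, both with an adjusted p of 0.384. Astrocyte genes had 16 negative of 24 and a median of -0.08, with Sox9 at -0.26 and S100b at -0.28. The median was -0.02 without irradiated mouse 2 and -0.005 on equal totals, where 12 were positive and 12 negative. Fabp7, a lipid-binding protein of radial glia and astrocytes, was at 41.0, 24.2 and 29.3 FPKM against 53.1, 49.6 and 45.3 in the hippocampus. Its prefrontal values were 22.7, 11.2 and 18.8 against 32.2, 29.0 and 29.8 FPKM. In each region all irradiated libraries were below the controls of that region, and the difference was -0.73 ± 0.17 (SE, adjusted p = 0.369). The stem cell factor Sox2 differed by -0.29 (adjusted p = 0.384), and Dcx, a marker of young neurons, by 0.02 (adjusted p = 0.946). The list of neural stem cell and young neuron genes had 7 positive and 11 negative differences of 18 and a median of -0.03. Oligodendrocyte precursor genes had 11 negative of 16 and a median of -0.03, and on equal totals 7 negative and 0.04.

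Medians of neuronal lists were near 0. Glutamate and GABA receptor genes had 28 positive of 36 with 5 higher at an unadjusted p under 0.05. Their median of 0.08 became 0.01 without control mouse 1. Grik3, a kainate receptor subunit, was at 10.8, 9.51 and 8.59 FPKM against 6.14, 7.38 and 6.45 in the hippocampus. The prefrontal cortex held 22.6, 23.2 and 22.2 against 19.7, 20.8 and 19.9 FPKM. Both regions were separated, with a difference of 0.32 ± 0.07 (SE, adjusted p = 0.355). Cortical layer genes had 17 positive of 24 and a median of 0.06, and Tbr1, a transcription factor of deep-layer neurons, differed by 0.29 (adjusted p = 0.384). Inhibitory interneuron genes had 12 positive of 22 (median 0.01), hippocampal subfield genes 6 of 23 (median -0.02) and striatal genes 8 of 18 (median -0.03). Heat shock genes had 9 positive of 29 (median -0.01) and cholesterol genes 16 of 25 (median 0.05). Crh, the stress peptide of the hypothalamus that some cortical interneurons also make, differed by -0.12 (adjusted p = 0.742).

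Choroid plexus genes rested largely on 1 mouse, and ependymal and hypothalamic lists had negative medians. All 24 choroid plexus genes tested had negative differences, and their median of -0.56 became -0.11 when irradiated mouse 2 was left out. Ttr, transthyretin, the main product of the choroid plexus, was at 2974, 52.1 and 4453 FPKM in the irradiated hippocampus and at 3596 to 5625 in the controls. All 15 ependymal cilia genes were negative, and their median of -0.25 became -0.13 without that mouse. Hypothalamic neuropeptide genes were negative in 8 of 9, with a median of -0.15. Among them Oxt, Avp and Gal averaged only 0.257, 0.538 and 0.448 FPKM in the irradiated libraries. They passed the filter of a mean of 1 FPKM only through the control libraries and had to be lower after irradiation. Oxt, oxytocin, was at 22.3 FPKM in the prefrontal cortex of control mouse 3 and at no more than 0.697 in the other 11 libraries. Its difference of -0.93 (adjusted p = 0.536) thus rests on 1 library. Among abundant nuclear noncoding RNAs, 10 of 15 were negative, and the median of -0.21 became 0.06 when irradiated mouse 3 was left out. This list holds Rmrp, its only called gene. Neat1, the scaffold of paraspeckles, was at 27.4, 26.1 and 20.9 FPKM against 50.2, 35.7 and 36.1 in the hippocampus. In the prefrontal cortex it was at 16.1, 14.1 and 16.2 against 23.1, 16.5 and 20.4 FPKM. Neat1 was separated in both regions, narrowly in the prefrontal cortex, and differed by -0.51 ± 0.11 (SE, adjusted p = 0.365).

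Genes were also counted by whether their libraries overlapped within each region. In both regions 155 genes were separated upward (1.2%), 135 downward (1.05%) and 34 in opposite directions (0.264%). In the hippocampus alone 15.5% of genes had no overlap and in the prefrontal cortex 13.6%. Both regions were taken to come from the same mice, by the numbers in the labels, so these counts describe 6 animals and share them. No gene was called for a different effect in the regions (0 of 12894, 0.0%, limma), with 699 at an unadjusted p under 0.05 (5.42%). With 3 mice against 3 the smallest p of a two-sided exact permutation test is 0.1, so the calls rest on the spread that limma pools across genes.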

How the data were processed

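RNA-seq of 12 libraries was analysed from 1 table per library. Per the submitters' processing notes, the authors used TopHat and mm10, and they deposited values per gene that were taken as FPKM from their form. No source used here names the counting tool, the annotation or the use of strand. The tables hold no read counts, so depth in reads is unknown. FPKM were transformed as log2(FPKM + 1), averaged over both regions of a mouse, filtered at a mean of 1 over 12 libraries, and compared with limma 3.58.1 (R 4.3.3, intensity trend, Benjamini-Hochberg adjustment, threshold 0.05). The within-mouse difference between regions was fitted the same way. The members and lists were chosen with earlier results of these data known. Up to 10 genes per direction were named, those past the threshold and then those of smallest p with mouse means that did not overlap, with up to 4 members of each of 34 lists of genes and 20 single genes. Lengths and positions are from GENCODE M21, which matched 22148 of the symbols (95.54%). The fit was tested on simulated data. The alternatives were other pseudocounts, filters and scalings, removal of the length trend, other limma settings, a 12-library fit, a replicate block and leaving out each mouse. One gene that the naming rule picks is not reported here.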

Additional observations from a re-analysis of the deposited data

How the results depend on the processing

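In the mean of both regions, 1 gene was called. No gene was called without the filter on low values (0) or with the length trend removed (0), 2 were called with the replicate block (Ly6a, adjusted p = 0.0245, and Rmrp), and 1 to 3 when 1 mouse was left out, with Rmrp among them each time. For the effect difference between regions, 0 genes were called, 1 with the replicate block (Hba-a2) and 0 to 2 when 1 mouse was left out. Deviations of irradiated and control mice of the same number correlated at 0.193, 0.0495 and 0.0147 for numbers 1 to 3. Irradiated mice 1 and 3 went best with the control of their own number, and irradiated mouse 2 with control mouse 3, at 0.111. The labels do not say that equal numbers form pairs, and pairing was not tested. At an unadjusted p under 0.05 the count of 1304 became 842 without irradiated mouse 2 and 1530 with the replicate block. Signs turned for Dcx with the length trend removed (-0.043), and with 1 mouse left out for Crh (-0.205 to 0.021), Nr3c1 (-0.030 to 0.102) and Dcx (-0.016 to 0.087). Leaving out 1 mouse moved the median of 28 of 34 lists by over 1.5 times and turned the sign of 9. The cause was not tested.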
